A study of Mus musculus with 18 samples.

Results

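The RPE/choroid of mice that received 1 intravitreal injection of triamcinolone acetonide (TAA) was compared between 30 days and 7 days postinjection. The comparison uses the arrays titled TAA day 30, bio rep 1 to 3, against those titled TAA day 7, bio rep 1 to 3, which are 6 of the 18 arrays of the series. The other 12 arrays hold the same days after balanced salt solution (BSS, the vehicle) and after dexamethasone (Dex), and enter below only where the TAA groups are set beside them. All animals were male C57BL6/J mice, given in the labels as 2 months old and in the methods as 6 to 8 weeks old, kept in 12/12 light/dark. No genetic change was made in any group. Each TAA eye received 25 μg of TAA in 1 μL of BSS, each Dex eye 10 μg of Dex, and each BSS eye the vehicle alone, so all 6 groups share the injection itself, and no uninjected eye is part of these data. The methods give 4 animals per group, of which the 3 with the best RNA were hybridized, and a morning collection on both days. The retina was removed, RPE cells were released by passage through a needle, and the sclera was taken out before RNA was isolated. The paper holds it likely that the choroid mostly remained on the sclera. Time since injection, age at collection and the day of collection differ together between the groups, so they cannot be told apart.

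TAA is a poorly soluble glucocorticoid that is injected as a suspension of crystals, whereas Dex is a soluble and short-lived one. Glucocorticoids bind the receptor Nr3c1, which enters the nucleus, switches on genes such as Tsc22d3 and Per1 and restrains inflammatory genes. The retinal pigment epithelium (RPE) recycles the visual pigment, takes up shed photoreceptor tips on a daily rhythm and forms the outer blood-retina barrier. Its clock, like that of other cells, is a loop in which Arntl with Clock or Npas2 switches on the Per, Cry, Nr1d and PAR bZIP genes, whose products then repress or tune the loop.

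The values were log2 signals from which the median of all 18 arrays had been taken, probe set by probe set, so they hold differences between arrays and no expression levels. A value of 0 is the middle of the series, and 1 unit is a doubling. Since levels were lost, neither the labelled tissue nor a weak signal could be checked from its level. The 3 arrays per group limit the precision: an exact permutation test of 3 against 3 cannot give a p below 0.1, and the tests below share 1 estimate of spread over all 18 arrays (limma). Array medians lay near 0 in every group. The 3′ minus 5′ difference of the Gapdh probe sets, a sign of RNA quality, ran from -0.09 to 0.21 at day 7 and from -0.38 to 0.53 at day 30 after TAA. That of the actin control (Actb) ran from -0.30 to 0.16 and from -0.37 to 0.65. The third array of day 30 was the highest TAA array in both controls (0.53 and 0.65), and the part of RNA quality in its values was not tested. In bulk tissue, fewer cells of a type and less RNA per cell cannot be told apart. The third TAA array of day 30 stood apart from the other arrays of that day in its genes of neural retina and surface epithelium, as given below.

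Across all 45101 probe sets, 1 passed an adjusted p under 0.05 (limma with Benjamini-Hochberg adjustment), which is 0.00222% of those tested. It was the probe set of Saa3, which fell. At an unadjusted p of 0.05 or less there were 2236 probe sets, 4.96% of those tested, of which 774 (1.72%) were higher and 1462 (3.24%) lower at day 30. The study called a probe set at an unadjusted p of at most 0.05 and a fold of at least 1.5, and these thresholds held for 323 probe sets (0.716%), 109 of them higher (0.242%) and 214 lower (0.474%). After quantile normalization those thresholds held for 119 higher and 416 lower probe sets. In 245 of the 323 the 3 arrays of day 30 lay outside the range of the 3 arrays of day 7, against 12.2% of all probe sets. The thresholds chose the 323 from the same 6 arrays, so this count is no separate result. The number at the study thresholds depended on single arrays. It was 1056 without the third array of day 30, 197 without the second array of day 30, 212 without the second array of day 7 and 586 without the third array of day 7. The balance of directions also turned: without the third array of day 30 there were 635 higher and 421 lower probe sets, with weights for each array 582 and 254, and in the fit on the TAA arrays alone 205 and 191. With the probe sets of each gene averaged (those listed under 1 symbol alone), 2 of 18194 genes passed (0.011%), Saa3 and Wee1, and both fell. The median difference over all genes was -0.01, and 8434 genes (46.4%) had a higher mean at day 30. An unadjusted p of 0.05 was reached by 1008 genes (5.54%), 328 of them higher (1.8%) and 680 lower (3.74%). The days did not overlap in 12.6% of genes, higher in 5.1% and lower in 7.54%.

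Saa3, an acute phase serum amyloid made by macrophages and epithelia under inflammation, was the change that passed most clearly. Its centred log2 values were 2.84, 1.92 and 2.73 in the 3 arrays of day 7 and -0.66, -0.54 and -0.26 in those of day 30. Every day 7 array lay far above every day 30 array. The log2 difference was -2.98 (SE 0.30, adjusted p = 0.00169), a fold of 7.91. The other 12 arrays of the series ran from -0.56 to 0.94, so that the 3 TAA arrays of day 7 were the highest of all 18 and the lowest of all was a TAA array of day 30. The day difference was 0.13 after BSS and -0.50 after Dex. The difference between the TAA and BSS day effects was -3.12 (SE 0.42), with an adjusted p of 0.082 that misses the threshold. Over the 20 other settings run, that adjusted p ranged from 0.0237, without the second TAA array of day 7, to 0.561, with the TAA and BSS arrays alone, and it was 0.0295 without the first BSS array of day 30. Against Dex the difference was -2.48 (SE 0.42, adjusted p = 0.999974). The fit on the 6 TAA arrays alone, with 4 residual degrees of freedom in place of 12, gave the same fold with an adjusted p of 0.159.

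The 250 bases before the Saa3 start, from RefSeq on GRCm38.p6 (chr7:46715677-46715926, minus strand), are shown because Saa3 was the probe set that passed. The window was searched on both strands for CACGTG (E-box), TTANGTAA (D-box), TAGGTCA (the core of a RORE) and the glucocorticoid response element, and none of them occurred in it, so it carries no capitals.
Saa3: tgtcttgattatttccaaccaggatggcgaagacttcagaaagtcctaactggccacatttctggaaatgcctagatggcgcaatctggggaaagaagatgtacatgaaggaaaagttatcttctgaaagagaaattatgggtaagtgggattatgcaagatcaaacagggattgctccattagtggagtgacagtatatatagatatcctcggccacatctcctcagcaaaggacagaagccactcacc

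Of 16 acute phase genes measured, 11 had a lower mean at day 30 and 5 a higher one. Saa3 passed the adjusted test, and 2 more were lower at an unadjusted p of 0.05 or less, a direction and threshold that 3.74% of all genes met. The median over the list was -0.21, against -0.01 over all genes. It was -0.33 without the first array of day 7 and -0.12 without the second. Chil3, a chitinase-like protein secreted by alternatively activated macrophages, was 3.16, 0.79 and 2.23 at day 7 and 0.08, -0.32 and -0.21 at day 30. The groups did not overlap, and the spread at day 7 was wide. Its difference was -2.21 (SE 0.56, adjusted p = 0.568 per gene). Lrg1, a leucine-rich glycoprotein that modulates vessel growth, gave -0.62 (SE 0.28). Lcn2, a siderophore-binding protein of the innate response, was 2.91, 2.01 and 2.65 at day 7 and 1.74, 1.45 and -1.13 at day 30. The days did not overlap, but 2 of the day 30 arrays came close to day 7 and the third was far below them. The difference of -1.84 (SE 1.65) had a 95% interval from -5.36 to 1.69. The hepatic serum amyloids Saa1 (-0.10, SE 0.09) and Saa2 (0.01, SE 0.15) differed by far less than Saa3.

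**Figure D1:**
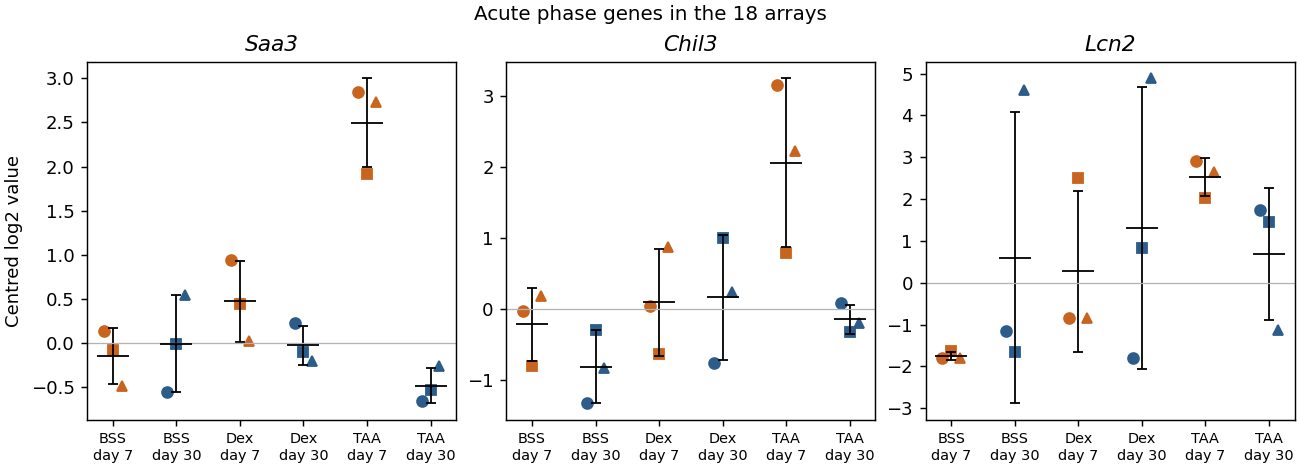
Centred log2 values of Saa3, Chil3 and Lcn2 (vertical axis) in each of the 18 arrays, by treatment and day (horizontal axis); circles, squares and triangles are replicates 1, 2 and 3, and bars give the mean ± SD of 3 arrays. The TAA arrays of day 7 lie between 1.92 and 2.84 for Saa3 and those of day 30 between -0.66 and -0.26; for Lcn2 single arrays of BSS and Dex at day 30 reach 4.61 and 4.89.

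The clock genes include Wee1, the other gene that passed. Over 4 lists of 28 genes measured (activators and Ror receptors, Per and Cry repressors, output genes, and genes of clock protein turnover), 14 genes had an unadjusted p of 0.05 or less, against 5.54% of all genes, and in 18 the days did not overlap, against 12.6% of all genes. Only Wee1 among them passed the adjusted test. Of the 14, 4 were higher at day 30 and 10 lower. The median absolute difference over the 22 genes outside the turnover list was 0.40, against 0.09 over all genes.

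Among the activators, 5 of 6 measured genes had a higher mean at day 30, and 3 of them an unadjusted p of 0.05 or less, against 1.8% of all genes. Npas2, a Clock paralogue that pairs with Arntl, was -0.17, -0.67 and -0.39 at day 7 and 0.26, 0.79 and 0.43 at day 30, with no overlap. The difference was 0.90 (SE 0.14, adjusted p = 0.0924). Its 2 probe sets disagreed in size, with 1.67 (SE 0.25, adjusted p = 0.13) and 0.14 (SE 0.13). Arntl, the core activator Bmal1, was -0.22, -0.47 and -0.22 at day 7 and 0.46, 0.46 and 0.29 at day 30. Again all day 30 arrays were above all day 7 arrays, with a difference of 0.71 (SE 0.13, adjusted p = 0.34). Here too 1 of 2 probe sets carried it (1.43, SE 0.25), while the other gave -0.02. Clock itself differed by 0.29 (SE 0.08), Arntl2 by 0.10 (SE 0.13), and the receptors Rora and Rorb, which activate Arntl, by -0.21 (SE 0.11) and 0.09 (SE 0.30).

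The repressors had lower means at day 30 in 5 of 5 genes, and in each of them the days did not overlap, against 7.54% of all genes lower without overlap. For 4 of the 5 the unadjusted p was 0.05 or less, against 3.74% of all genes in that direction. Per1, which the glucocorticoid receptor also induces directly, was 0.87, 0.29 and 0.86 at day 7 and -0.16, -0.61 and -0.34 at day 30. The second array of day 7 was the lowest of its group and still above the highest of day 30. The difference was -1.04 (SE 0.18, adjusted p = 0.151). Without that array it was -1.23, with an adjusted p of 0.0435. Per2 was 0.30, 0.12 and 0.23 at day 7 and -0.29, -0.39 and -0.16 at day 30, a difference of -0.50 (SE 0.12). Per3 differed by -0.32 (SE 0.10), Cry1 by -0.36 (SE 0.18) and Cry2 by -0.33 (SE 0.12). Within Per2 and Per3 single probe sets were larger than the gene means, with -1.21 (SE 0.26) for 1 of Per2 and -0.74 (SE 0.12) for 1 of Per3.

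The windows of 250 bases before the start are shown for Per1 and Per3 as examples of an E-box and of a repeated D-box among the repressors. Capitals mark an E-box in Per1 (GRCm38.p6, chr11:69098699-69098948, plus strand) and D-boxes, the element of the PAR bZIP factors and Nfil3, in Per3 (chr4:151044666-151044915, minus strand).
Per1: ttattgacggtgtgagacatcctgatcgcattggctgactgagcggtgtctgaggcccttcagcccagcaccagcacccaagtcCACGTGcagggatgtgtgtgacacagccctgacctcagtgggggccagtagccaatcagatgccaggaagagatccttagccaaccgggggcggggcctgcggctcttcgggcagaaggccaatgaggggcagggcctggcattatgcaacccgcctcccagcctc
Per3: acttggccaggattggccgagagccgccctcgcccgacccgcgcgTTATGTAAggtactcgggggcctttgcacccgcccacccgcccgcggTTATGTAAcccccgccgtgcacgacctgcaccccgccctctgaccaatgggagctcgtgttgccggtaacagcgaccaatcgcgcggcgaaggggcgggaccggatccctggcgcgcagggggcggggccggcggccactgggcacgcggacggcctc
These matches are letters in a window, not sites shown to be bound. A second RefSeq start of Per1 has a window (chr11:69099902-69100151) with 0 matches, which is not printed. Over all 32851 RefSeq windows of this length 6.02% held an E-box, 2.06% a D-box, 2.23% the RORE core and 0.387% the glucocorticoid response element. Of the 32 windows found for 23 of the 28 clock genes, 18.8% held an E-box, 6.25% a D-box and 3.12% the RORE core, and 0 held the glucocorticoid response element. The E-box genes among them were Ciart, Bhlhe41, Cry1, Per1 and Tef. The windows of Npas2 and Arntl held none of the 4 motifs. Genes that met the study thresholds with lower values held an E-box in 7.34% of 177 windows and those with higher values in 4.44% of 90, against 7.38% for genes on the array.

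Of the 11 output genes, 10 had a lower mean at day 30 and 1 a higher one. Wee1, a kinase that holds back mitotic entry and a direct clock target, was 0.41, 0.44 and 0.39 at day 7 and -0.18, -0.21 and -0.31 at day 30. The arrays within each day were close together and the days far apart. The difference was -0.64 (SE 0.08, adjusted p = 0.0154), with both probe sets lower (-0.70 and -0.58). The call did not hold when any TAA array was left out (adjusted p from 0.0614 to 0.109), with the fit on the TAA arrays alone (0.448) or with the replicate number as a block (0.0582). At an unadjusted p of 0.05 or less, Bhlhe40 (-0.58, SE 0.18), a repressor of the Dec family, Nr1d2 (-0.54, SE 0.12), the Rev-erb beta receptor, and Ciart (-0.53, SE 0.13), a Clock-Arntl repressor, were lower. So were the PAR bZIP factors Tef (-0.43, SE 0.10) and Dbp (-0.36, SE 0.16). Nfil3, which competes with the PAR bZIP factors for the D-box, went the other way, with -0.15, -0.02 and -0.25 at day 7 and 0.55, 0.48 and 0.12 at day 30, a difference of 0.53 (SE 0.20). Nr1d1 (-0.33, SE 0.17), Usp2 (-0.45, SE 0.24), Hlf (-0.23, SE 0.14) and Bhlhe41 (-0.18, SE 0.13) did not pass an unadjusted p of 0.05. The 6 turnover genes, the kinases Csnk1d, Csnk1e and Gsk3b and the ubiquitin ligase parts Fbxl21, Btrc and Fbxw11, ran from -0.19 to 0.01, and none had an unadjusted p of 0.05 or less.

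**Figure D2:**
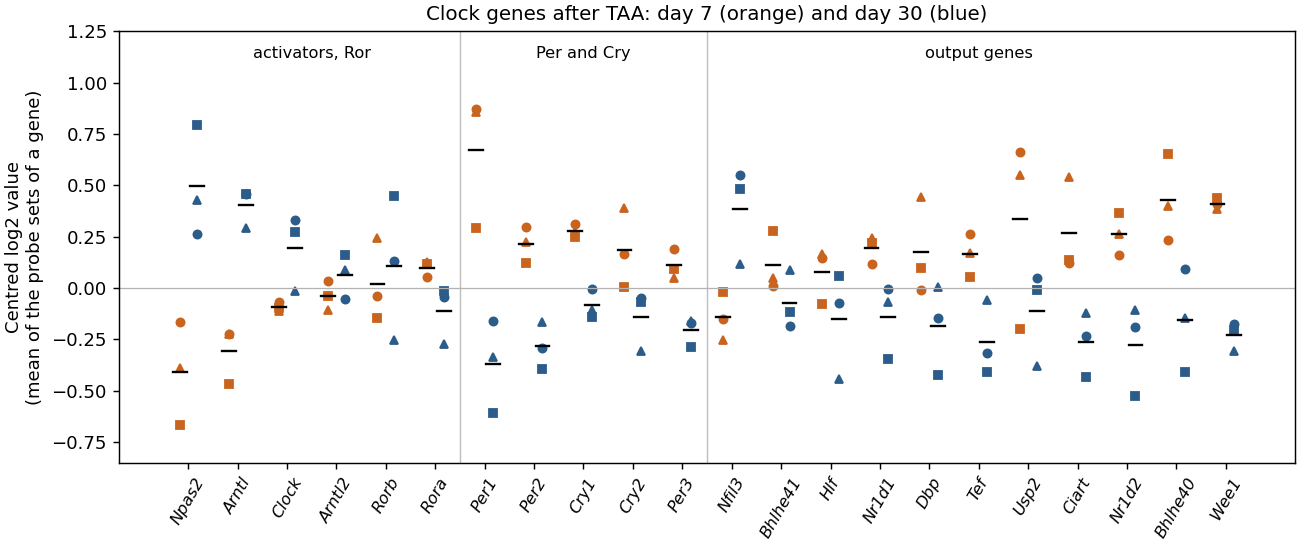
Centred log2 values (vertical axis, mean of the probe sets of a gene) of 22 clock genes (horizontal axis) in the 3 TAA arrays of day 7 (orange) and of day 30 (blue); circles, squares and triangles are replicates 1, 2 and 3, and black lines are group means. All 5 Per and Cry genes lie lower at day 30 without overlap, Npas2, Arntl and Clock lie higher, and the Wee1 arrays of each day lie close together.

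The day differences of these genes were also measured without TAA in the eye. Of the 28 clock genes, 21 had the same sign of day difference after BSS and 26 after Dex, in arrays that the TAA comparison did not use. Among all probe sets 59.6% shared the sign after BSS and 59.1% after Dex. The shares in this paragraph count probe sets, whereas the 28 clock genes are means over probe sets, so the 2 are not like for like. Of all probe sets, 1 passed the adjusted test after BSS (0.00222%), that of Arntl, and 4 after Dex (0.00887%), those of Per3, Arntl, Npas2 and Ciart. For Arntl the day difference was 0.71 after TAA, 1.27 after BSS and 1.10 after Dex. For Per1 it was -1.04 after TAA, -0.25 after BSS and -0.65 after Dex. Wee1 gave -0.64, -0.44 and -0.42 in the same order. The difference between the TAA and BSS day effects had an unadjusted p of 0.05 or less (limma) for 5 of the 28 genes, against 3.03% of all probe sets. Of the 5 Per and Cry repressors 3 reached it with the lower day effect after TAA, and 0 in the other direction. The 3.03% of all probe sets holds both directions. The difference from Dex reached it for 1 of the 28, against 1.59% of all probe sets. The smallest adjusted p was 0.968 against BSS and 0.999993 against Dex, so no clock gene was shown to differ in its day effect between treatments.

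Of 23 measured genes that glucocorticoids are known to induce, 19 had a lower mean at day 30 and 4 a higher one, with a median of -0.21 against -0.01 over all genes. None passed the adjusted test, while 3 were lower and 1 higher at an unadjusted p of 0.05 or less, against 3.74% and 1.8% of all genes. Tsc22d3 (GILZ), a classical receptor target that damps inflammatory signalling, was 0.81, 0.11 and 0.34 at day 7 and -0.06, -0.29 and -0.13 at day 30. The first array of day 7 was the highest and the groups did not overlap. The difference was -0.58 (SE 0.13, adjusted p = 0.387), and its 4 probe sets ran from -1.33 to 0.10. The probe set with -1.33 was also lower at day 30 after BSS (-0.75) and after Dex (-0.90). The median of the whole list was -0.12 after BSS and -0.05 after Dex. The transcription factors Cebpd (-0.53, SE 0.19) and Cebpb (-0.48, SE 0.12) were lower, and Angptl4 (0.48, SE 0.15), an inhibitor of lipoprotein lipase, was higher. Fkbp5, the receptor co-chaperone, was 0.96, 0.04 and 0.21 at day 7 and 0.11, 0.08 and -0.00 at day 30, so the groups overlapped. That first array of day 7 was also the highest of its group for Zbtb16 (1.02 against -0.09 and -0.06), Klf9 (0.51 against -0.03 and 0.04) and Sult1a1 (1.63 against -0.16 and 0.41). Without it the list's median was -0.07, and without the second array of day 30 it was -0.11. The receptor Nr3c1 differed by -0.06 (SE 0.08), the mineralocorticoid receptor Nr3c2 by -0.05 (SE 0.11), and Hsd11b1, which regenerates active glucocorticoid in the cell, by -0.36 (SE 0.13).

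Among 11 genes tied to steroid glaucoma and the outflow matrix, 7 had a lower mean and 4 a higher one, with a median of -0.03. Prg4 (lubricin), a lubricating proteoglycan, was 0.20, 0.39 and 1.38 at day 7 and -0.999, -0.968 and -0.81 at day 30, and Angptl7, a secreted factor of the trabecular meshwork and cornea, was 0.84, 1.20 and 0.65 against -0.52, -0.42 and -0.13. In both genes the day 30 arrays lay close together below every day 7 array. The differences were -1.58 (SE 0.34, adjusted p = 0.373) and -1.26 (SE 0.31, adjusted p = 0.538). After BSS they were -1.47 and -1.31, and after Dex -0.99 and -1.24. Loxl1, which cross-links elastin, gave 0.42 (SE 0.16). Of 9 prostaglandin genes, 6 had a lower mean, with a median of -0.12 that was 0.0074 without the second array of day 30. Ptgs2 (cyclooxygenase-2), the inducible enzyme of prostaglandin synthesis, was 0.21, 0.57 and 0.31 at day 7 and -0.50, -0.61 and 0.06 at day 30, a difference of -0.71 (SE 0.15, adjusted p = 0.373) that was -0.74 after BSS and -0.47 after Dex. Ptges, the terminal prostaglandin E synthase, gave -0.14 (SE 0.16).

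Macrophage and microglia genes had lower means at day 30 in 14 of 16, with a median of -0.29, and none passed the adjusted test. The array means of the list were -0.08, 0.03 and 0.02 at day 7 and -0.26, -0.80 and 0.08 at day 30. The second array of day 30 was the low one and the third lay above all of day 7, so the groups overlapped. Without the second array the list's median was -0.00, and without the third it was -0.53. Cd163, the haemoglobin scavenger receptor and itself a glucocorticoid-induced gene, was 1.65, 0.18 and -0.00 at day 7 and -0.44, -1.01 and -0.35 at day 30, a difference of -1.21 (SE 0.36, adjusted p = 0.797). Its day difference was -0.67 after BSS and -0.67 after Dex. Leaving out 1 TAA array gave -1.51 to -0.69 for the TAA difference. Cd68, a lysosomal protein of phagocytes, gave -0.83 (SE 0.30) and C1qc, a chain of complement C1q, -0.71 (SE 0.29). Without the second array of day 30 they were -0.45 and -0.40. The pan-macrophage receptor Csf1r gave -0.06 (SE 0.11). Of 15 chemokines and cytokines, 12 had a lower mean, with a median of -0.12. Ccl11 (eotaxin) was 0.81, 0.86 and -0.10 at day 7 and -0.36, -0.65 and -0.20 at day 30, a difference of -0.92 (SE 0.25, adjusted p = 0.696), and was -1.05 after BSS and -0.95 after Dex. Ccl2 (-0.13, SE 0.13) and Il6 (-0.19, SE 0.20) did not pass. Complement genes outside C1q were lower in 8 of 10 (median -0.11), with Cfi, a protease that inactivates C3b, at -1.05 (SE 0.47) and the receptor C3ar1 at -0.52 (SE 0.22). The class II genes, among them H2-Aa (0.14, SE 0.25) and H2-Ab1 (-0.05, SE 0.35), had a median of 0.01. Of 12 interferon-stimulated genes 8 had a lower mean, with a median of -0.08. Ifit2, an interferon-induced protein that restrains viral RNA, was 0.15, 0.34 and 0.16 at day 7 and -0.12, -0.32 and -0.10 at day 30, a difference of -0.40 (SE 0.13), and was -0.41 after BSS.

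Genes of RPE identity and the visual cycle had a lower mean at day 30 in 17 of 17, but by little. The median was -0.14 and the range -0.45 to -0.00, none passed the adjusted test, and in 5 of the 17 the days did not overlap, against 7.54% of all genes lower without overlap. The array means of the list were 0.18, 0.12 and 0.05 at day 7 and 0.02, -0.22 and 0.03 at day 30, so the second array of day 30 was again the low one. Otx2, a transcription factor of RPE fate, was 0.34, 0.17 and 0.14 at day 7 and 0.03, -0.34 and -0.05 at day 30, a difference of -0.34 (SE 0.14). Ezr, the ezrin of the apical microvilli, gave -0.32 (SE 0.12). Rpe65, the visual cycle isomerase, gave -0.13 (SE 0.11) and Best1, a chloride channel of the basolateral membrane, -0.21 (SE 0.11). The median of these genes was -0.02 after BSS and -0.04 after Dex. Melanin genes were lower in 8 of 9 (median -0.20, but -0.08 without the second array of day 30, whose list mean was -0.40), with tyrosinase (Tyr) at -0.50 (SE 0.18) and Tyrp1 at -0.11 (SE 0.15). Of 11 genes of photoreceptor uptake, 8 had a lower mean (median -0.08), with the scavenger receptor Cd36 at -0.68 (SE 0.30), the lysosomal protease Ctsd at -0.35 (SE 0.15) and the engulfment receptor Mertk at -0.24 (SE 0.25).

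Genes of the neural retina, which had been removed, spread more among arrays of 1 day than between the days. Rod genes had a higher mean at day 30 in 21 of 24 (median 1.22), but the array means of the list were -0.20, -1.12 and 1.62 at day 7 and 1.98, 2.54 and -1.11 at day 30. The third array of day 7 was high, the third of day 30 was low, and none of the 24 had an unadjusted p of 0.05 or less. Gnat1, rod transducin, gave 1.73 (SE 1.90), with a 95% interval from -2.33 to 5.79. Without the third array of day 30 the list's median was 2.32, and without the second it was 0.36. Cone genes were higher in 9 of 9 (median 0.38) and inner retina genes in 14 of 16 (median 0.65, and 0.26 without the second array of day 30), in the same arrays: the inner retina means were -0.40, -0.59 and 0.74 at day 7 and 0.80, 1.38 and -0.43 at day 30. Thy1 (0.64) and Stmn2 (0.44), of ganglion cells and their axons, had an unadjusted p of 0.05 or less. They were 2 of those 16, against 1.8% of all genes in that direction. Glutamate receptors and transporters were higher in 10 of 12 with a median of 0.18, which was 0.06 with the rod mean of each array as a covariate. Leaving out 1 array gave medians from 0.06 to 0.21 for this list. Grin3a, a subunit of NMDA receptors, was -0.62, -2.02 and -0.56 at day 7 and 0.23, 0.48 and 0.11 at day 30 in 1 of its 3 probe sets, a difference of 1.34 (SE 0.46, adjusted p = 0.897). With the rod mean as a covariate 3 of all probe sets passed the adjusted test, those of Saa3, Arntl and Per1.

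Surface epithelium had the largest median of the 38 lists, 2.05, with 10 of 10 genes higher and none at an unadjusted p of 0.05 or less. The array means were -1.81, -1.99 and -0.27 at day 7 and 1.45, 1.73 and -1.95 at day 30. The third array of day 30 was as low as the first and second of day 7, so the days overlapped. Without that array the median was 3.56, and without the second array of day 30 it was 0.81. Krt5, a basal keratin, gave 2.70 (SE 1.98). Krt12, the keratin of the corneal epithelium, was near 0 in 5 of the arrays, from -0.46 to 0.13, and 7.99 in the first array of day 30. The median over this list was -0.05 after BSS and -0.57 after Dex, and the list means of the other groups spread as widely, from -1.94 to 1.40 after BSS and from -1.96 to 2.45 after Dex. Tmem40 (1.58, SE 0.65), Kdf1 (1.56, SE 0.50), a regulator of keratinocyte differentiation, and Ceacam1 (1.31, SE 0.55), an epithelial adhesion molecule, met the study thresholds in the same direction at 1 or more probe sets, and the part of epithelium in the samples in these values was not tested. Ceacam1 was 0.55, 2.29 and -0.05 in the day 30 arrays, and 0.63 as a difference without the second of them.

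Lens crystallins were higher at day 30 in 13 of 15 genes (median 0.79), without overlap in 7, against 5.1% of all genes higher without overlap, and none passed the adjusted test. Their array means were -0.31, -1.21 and -1.08 at day 7 and 0.18, -0.41 and 0.26 at day 30, so the first array of day 7 lay above the second of day 30. Cryba1 was -0.57, -3.40 and -2.71 at day 7 and 0.81, -0.43 and 0.60 at day 30, a difference of 2.55 (SE 0.94, adjusted p = 0.904 per probe set). Crygs gave 2.33 (SE 0.88) and Cryba4 1.37 (SE 0.61). The list's median was 0.89 after BSS and 0.01 after Dex. Skeletal muscle genes were higher in 17 of 22 (median 0.19). That median was 0.02 without the first array of day 30 and 0.38 without the second. Myh3, the embryonic myosin heavy chain, was -1.24, -1.44 and -1.68 at day 7 and 0.54, -0.27 and 0.27 at day 30, a difference of 1.64 (SE 0.66), and was -0.12 after BSS and 1.37 after Dex. Pvalb (0.58, SE 0.22) and Tnnc2 (0.37, SE 0.16), of fast fibres, had an unadjusted p of 0.05 or less. Small leucine-rich proteoglycans were higher in 8 of 11 (median 0.25). Kera (keratocan), of the corneal stroma, was -1.75, -0.25 and -0.50 at day 7 and 1.24, 0.66 and -0.33 at day 30. The third array of day 30 fell within the range of day 7. The difference was 1.35 (SE 0.55, adjusted p = 0.881), against -1.10 after BSS, and the adjusted p of the TAA against BSS difference was 0.968. Fmod (0.65, SE 0.30) and Prelp (0.45, SE 0.20), which bind collagen fibres, were higher in every day 30 array than in any of day 7.

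**Figure D3:**
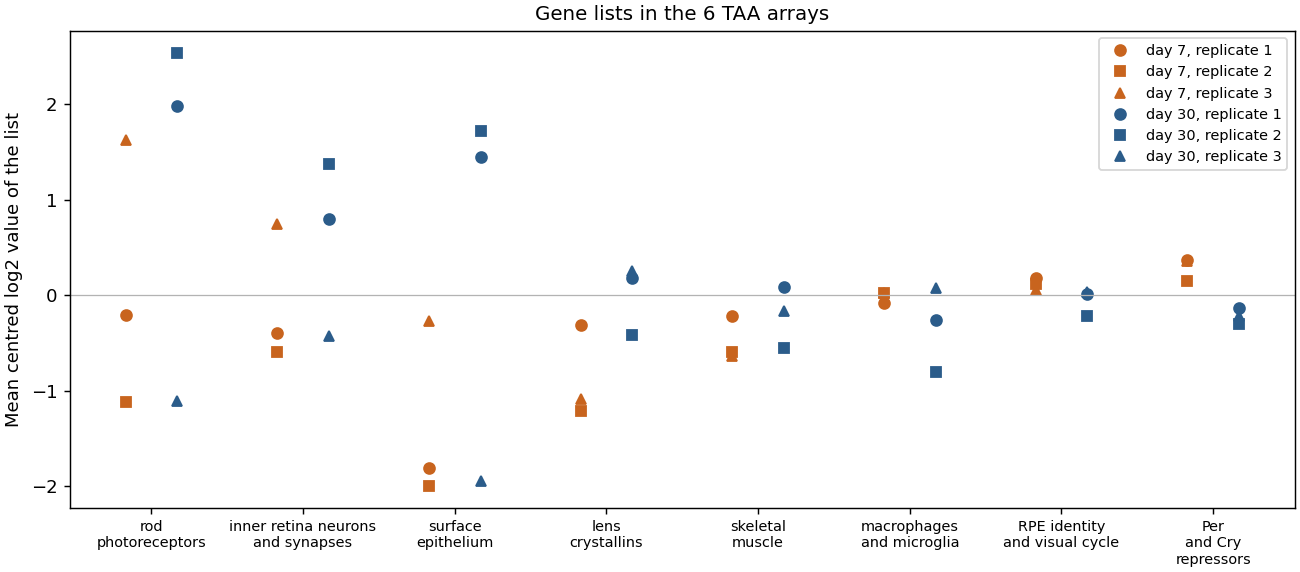
Mean centred log2 value (vertical axis) of 8 gene lists (horizontal axis) in each of the 6 TAA arrays, day 7 in orange and day 30 in blue, with circles, squares and triangles for replicates 1, 2 and 3. The rod, inner retina and surface epithelium lists overlap between the days, with the third array of day 30 at -1.11, -0.43 and -1.95, while the Per and Cry list does not overlap.

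Immediate early genes were lower in 10 of 12 (median -0.42), with array means of -0.36, 0.87 and 0.57 at day 7 and -0.15, -0.24 and 0.13 at day 30, so that the first array of day 7 was the lowest of the 6. Zfp36, which destabilizes cytokine mRNA, gave -0.55 (SE 0.24) and Fos -0.82 (SE 0.81). Without the second array of day 7 the median was -0.13. Genes of Bruch membrane and basement membrane had a median of -0.06, with Col8a1, a short-chain collagen, at -0.53 (SE 0.15). Fibrillar collagen and stroma genes had a median of -0.09, which ran from -0.33 without the first array of day 7 to 0.10 without the third, with Col5a2 at -0.47 (SE 0.19). Medians were close to 0 for endothelium (-0.09), vessel wall muscle and pericytes (-0.02), VEGF and angiogenic ligands (0.01), and Mueller glia and astrocytes (-0.02). Vegfa gave -0.17 (SE 0.13), Pecam1 -0.14 and Cdh5 -0.17. Cholesterol genes had a median of -0.07, with Insig1, which retains SREBP in the endoplasmic reticulum, at -0.52 (SE 0.19) and Msmo1 at -0.42 (SE 0.12). Glycogen and glucose genes were higher in 8 of 11 (median 0.10), with the glycogen phosphorylase Pygb at 0.23 (SE 0.07). Heat shock genes were higher in 9 of 10 (median 0.10), proliferation genes lower in 8 of 11 (median -0.07, from -0.57 without the first array of day 7 to 0.27 without the second), blood cell genes had a median of -0.01 and adipocyte genes of -0.06. Among blood cell genes S100a9, of neutrophils, gave 0.56 (SE 0.25). No gene of these lists passed the adjusted test. Over all 38 lists, leaving out 1 of the 6 arrays turned the sign of the median in 11 and moved it by over 1.5 times without a turn in 22. In the other 5 it did neither, namely the Per and Cry repressors, clock output, clock protein turnover, lens crystallins and heat shock genes.

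**Figure D4:**
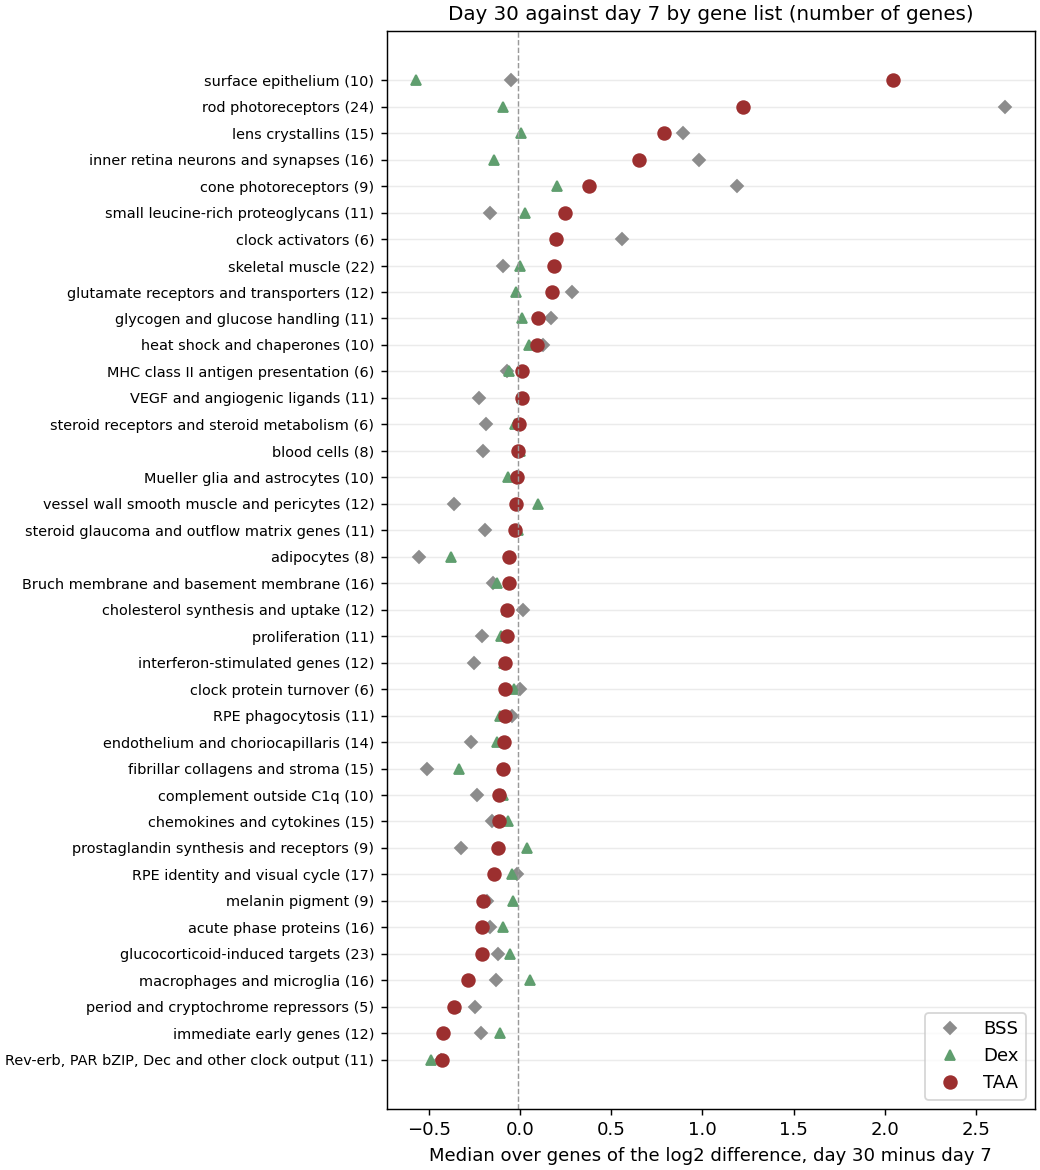
Median over the genes of each of 38 lists of the log2 difference, day 30 minus day 7 (horizontal axis), after TAA (circles), BSS (diamonds) and Dex (triangles); the number of genes is in brackets and the dashed line is the median of all genes after TAA, -0.01. Surface epithelium (2.05) and rods (1.22) lie farthest to the right after TAA, and the clock output list (-0.43) farthest to the left.

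The day effect after TAA was then set beside those after BSS and Dex, which share no array with it. Of the 323 probe sets at the study thresholds after TAA, 282 (87.3%) had the same sign after BSS and 292 (90.4%) after Dex, while among all probe sets 59.6% and 59.1% shared the sign. The thresholds were met in the same direction by 73 after BSS (22.6%, against 2.85% of all probe sets) and by 60 after Dex (18.6%, against 0.364%), and in the opposite direction by 0 in either. The size was smaller there: the median of the 214 lower probe sets was -0.72 after TAA, where the thresholds chose them, -0.40 after BSS and -0.33 after Dex. For the 109 higher ones it was 0.76, 0.27 and 0.28. Besides clock genes, Bpifb1, a secreted protein of mucosal epithelia (-1.43 after TAA, -2.21 after BSS, -1.07 after Dex), and Upk3b, a uroplakin of mesothelium and urothelium (-1.41, -0.64 and -1.27), were lower in all 3.

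In the test of the difference itself, 0 of the probe sets passed for TAA against BSS (0%) and 0 for TAA against Dex (0%) (limma, adjusted p under 0.05), while 1366 (3.03%) and 716 (1.59%) reached an unadjusted p of 0.05. By the size of the moderated statistic, Saa3 came first in both. Against BSS it was followed by Psg21, a pregnancy-specific glycoprotein (-0.44, SE 0.10), and Agpat4, an acyltransferase of phospholipid synthesis (0.74, SE 0.19), and against Dex by Gzmc, a granzyme (-0.60, SE 0.16), and C130046K22Rik (-0.45, SE 0.12). In each of these 4 the TAA difference was small (from -0.19 to 0.30) and the day difference in the other group had the opposite sign. Across the day effects of the 3 treatments the study thresholds held for 323 probe sets after TAA, 1383 after BSS (3.07%) and 172 after Dex (0.381%).

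**Figure D5:**
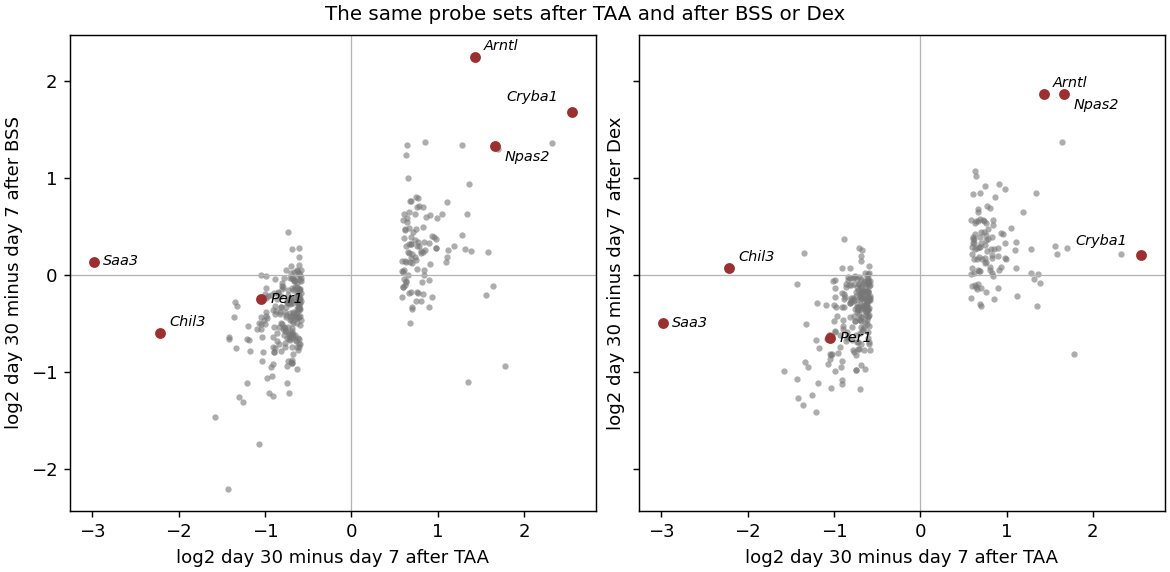
Log2 difference, day 30 minus day 7, after TAA (horizontal axis) against the same difference after BSS (left) or Dex (right, vertical axes) for the 323 probe sets that met the study thresholds after TAA, which leaves the middle of the horizontal axis empty; named genes are in red. Most points have the same sign on both axes, whereas Saa3 lies at -2.98 after TAA and at 0.13 and -0.50 after BSS and Dex.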

How the data were processed

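RNA from RPE/choroid of 18 mice was hybridized to Affymetrix mouse arrays. Which labelling kit was used is not settled, since labels and methods differ. Per the labels and methods, the authors ran RMA and took the median of all samples as baseline; the deposited values are log2 and centred per probe set. They hold no detection call or level, so no filter by signal, such as the study used, was applied. Replicate numbers only name samples. Groups came from the sample titles. Of 45101 probe sets, 34958 were annotated to 1 gene symbol, 932 to several and 9211 to none; means over probe sets gave 18194 genes. limma 3.58.1 (R 4.3.3) fitted 6 group means over 18 arrays (12 residual degrees of freedom). Benjamini-Hochberg adjustment ran over all features. The test was tried on simulated data. The members and the 38 gene lists (489 symbols, 455 measured) were chosen with earlier results of these data known. Named genes were the 10 of largest fold in each direction and all clock genes. The 10 came from past the adjusted threshold, then from the study thresholds without overlap of days. In other lists the rule took up to 3 members past the adjusted test, or the first 2 measured where none passed. In each difference between treatments it took the 3 of largest moderated statistic. Not every such gene is printed. The other list members at an unadjusted p of 0.05 or less were named after their values were seen. So were Lcn2, Saa1, Saa2, Zbtb16, Klf9, Sult1a1, Il6 and the printed windows. Motifs were searched in the 250 bases before each RefSeq start. Alternatives were array weights, the TAA arrays alone, a robust prior, quantile normalization, arrays centred at 0, a filter on SD, the replicate block, a rod covariate, the methods' t-test and leaving out each array. Figures used matplotlib 3.10.9 and tables pandas 2.3.3 (Python 3.11.15).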

Additional observations from a re-analysis of the deposited data

How the results depend on the processing

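The 6 arrays, the centred scale and the missing levels limit these results, and the cause of the shifts below was not tested unless named. The count of 1 probe set and 2 genes became 8 and 16 with array weights, 0 and 0 with the TAA arrays alone (4 residual degrees of freedom), 3 and 4 with the rod covariate, 3 probe sets after quantile normalization, 1 gene with the replicate block, 0 probe sets by the methods' t-test and 1 gene where a gene needed 1 called probe set. The study thresholds gave 323 probe sets, 836 with array weights (582 higher, 254 lower), 535 after quantile normalization and 166 by the methods' t-test. Leaving out 1 array gave 1 to 2 probe sets, 1 to 2 genes and 197 to 1056 probe sets at the study thresholds. For TAA against BSS the count of 0 became 1 (Saa3) after quantile normalization and without the probe sets of lowest SD, and 0 to 1 when an array was left out; for TAA against Dex it was 0 in every setting run. Saa3 passed in all settings but the TAA arrays alone and the methods' t-test. With array weights Npas2, Arntl, Per3, Ptgs2 and Wee1 also passed as probe sets. The methods give separate animals for the 2 days, so replicate numbers were not taken to pair samples. The deviations of same-numbered arrays of the 2 days correlated at -0.23, -0.36 and -0.67. These values cannot decide pairing, since deviations within a group of 3 arrays sum to 0 and so depend on each other. With the replicate block 1 probe set and 319 at the study thresholds remained, while Wee1 missed at 0.0582.

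The sign of some named genes turned. With array weights they were Fosb (-0.0487), Grik1 (-0.0405), H2-Ab1 (0.0347), Myh11 (0.0038), Nr3c2 (0.0276), Sqle (0.0021) and Top2a (-0.0067). After quantile normalization they were Mki67 (-0.28), Slc1a3 (0.0144) and Top2a (-0.078). With the rod covariate they were Acta1 (-0.0131), Btrc (-0.0284), Col4a2 (0.0571), Opn1mw (-0.20), Rorb (-0.14) and Vegfb (0.0317). Without the probe sets of lowest SD it was Btrc (-0.0044). Leaving out 1 array gave ranges across 0 for Acta1 (-0.21 to 0.21), Adipoq (-0.26 to 0.13), Alas2 (-0.10 to 0.14), Btrc (-0.0446 to 0.0489), Ccl7 (-0.12 to 0.0262), Col1a1 (-0.34 to 0.10), Col4a2 (-0.17 to 0.10), Cryab (-0.16 to 0.0557), Fosb (-0.0319 to 0.14), Grik1 (-0.0333 to 0.13), Grin2c (-0.10 to 0.0047), H2-Aa (-0.14 to 0.38), H2-Ab1 (-0.35 to 0.12), Hspa1a (-0.10 to 0.20), Mki67 (-0.68 to 0.95), Myh11 (-0.24 to 0.17), Nr3c2 (-0.13 to 0.0699), Rorb (-0.0813 to 0.27), Slc1a3 (-0.0606 to 0.0187), Sqle (-0.32 to 0.17), Top2a (-0.21 to 0.31), Tyrp1 (-0.22 to 0.0384) and Vegfb (-0.19 to 0.0574).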
